A study of Homo sapiens with 6 samples.

Results

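The Wnt pathway genes described here are 55 genes of Wnt signalling, out of 20037 protein-coding genes on chromosomes 1 to 22, X and Y. They were taken from a list of names by a rule that uses no measured value. The names were chosen with earlier results of these data known. They fall into 19 ligands (the WNT genes), 12 receptors (FZD1 to FZD10, LRP5 and LRP6), 12 effectors and 12 secreted modulators. All 55 were found in the RefSeq gene table of GRCh38.p14. Binding was read from the peaks that lay in a gene's body or within 5 kb of either end, called the gene window below.

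The study measured where MYT1L, a zinc-finger transcription factor of neurons, lies on chromatin. It used CUT&RUN, in which an antibody brings a nuclease to a protein and the DNA cut loose around it is sequenced. All 6 libraries came from WT cells of H1, an established human embryonic stem cell line, at day 30, and were made with an antibody to MYT1L (4 libraries) or with IgG, which has no chromatin target and gives the background (2 libraries). The series describes the cells as cortical interneurons derived from H1, while the sample labels give embryonic stem cells as cell type. Peak lists do not measure expression, so the cell type could not be checked; a reproducible region was present at 2 of 9 interneuron genes (DLX2 and NKX2-1), 2 of 6 pluripotency genes (SOX2 and LIN28A), 2 of 5 dorsal excitatory neuron genes and 1 of 4 glial genes, all below the 48.0% of all protein-coding genes. All libraries share 1 line and 1 genotype, and no source says that they came from separate cultures, so the spread between them may be technical.

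Wnt ligands are secreted lipid-modified proteins that bind a Frizzled receptor together with the co-receptor LRP5 or LRP6. In the canonical branch this stops the destruction complex of Axin, APC and GSK3β from marking β-catenin for breakdown, and β-catenin then acts with TCF/LEF factors on target genes. Secreted proteins of the DKK and SFRP families hold the pathway back and R-spondins raise it. In the developing forebrain Wnt signals from the dorsal midline favour dorsal over ventral fates, and cortical interneurons arise ventrally.

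The MYT1L lists held 27926, 12310, 18966 and 30086 peaks in replicates 1 to 4, and the IgG lists 976 and 998. Total read numbers are unknown. The fragment number at each summit was worked back from the deposited fold and p-value. It was whole, within 0.002 on the −log10 p scale, for 100% of the 875 to 900 peaks checked in each library. With 4 libraries against 2, an exact two-sided permutation test of a single gene cannot give a p below 0.133, so no gene was tested. A gene was called when overlapping peaks of at least 3 of the 4 MYT1L libraries formed a region in its window that no IgG peak overlapped.

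The findings are easiest to read beside the sequence upstream of the start sites they concern. The 250 bases before the annotated start are shown for a receptor and a co-receptor gene, for 3 effectors and for 3 ligands (RefSeq, GRCh38.p14, 5′ to 3′ on the gene's strand, CpG dinucleotides in capitals). The first 7 lie within 1 kb of a called region and the last 2 do not, so starts with and without a called region can be compared, including both starts of WNT2B. They hold 12 to 44 CpG, fewest at the upstream starts of APC and WNT2B. A peak of MYT1L replicate 4 alone lay at the upstream start of WNT2B. From top to bottom they are chr2:207769907-207770156, minus strand, 30 CpG; chr11:68312341-68312590, plus strand, 43 CpG; chr3:41199255-41199504, plus strand, 34 CpG; chr3:120094448-120094697, minus strand, 27 CpG; chr5:112707248-112707497, plus strand, 12 CpG; chr1:227947933-227948182, minus strand, 44 CpG; chr1:112508715-112508964, plus strand, 38 CpG; chr1:112466291-112466540, plus strand, 18 CpG; chr1:228006748-228006997, plus strand, 38 CpG.
FZD5 start: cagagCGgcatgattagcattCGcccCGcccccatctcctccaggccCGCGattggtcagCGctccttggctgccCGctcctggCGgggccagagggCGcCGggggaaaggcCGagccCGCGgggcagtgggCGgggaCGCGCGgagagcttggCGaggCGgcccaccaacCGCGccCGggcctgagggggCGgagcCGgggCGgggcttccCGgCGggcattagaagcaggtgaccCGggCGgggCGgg
LRP5 start: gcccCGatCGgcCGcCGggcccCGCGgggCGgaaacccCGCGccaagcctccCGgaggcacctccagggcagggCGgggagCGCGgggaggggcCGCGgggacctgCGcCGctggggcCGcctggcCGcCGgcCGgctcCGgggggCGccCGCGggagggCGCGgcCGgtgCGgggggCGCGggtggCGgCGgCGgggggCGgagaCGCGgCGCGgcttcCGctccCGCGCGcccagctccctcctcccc
CTNNB1 start: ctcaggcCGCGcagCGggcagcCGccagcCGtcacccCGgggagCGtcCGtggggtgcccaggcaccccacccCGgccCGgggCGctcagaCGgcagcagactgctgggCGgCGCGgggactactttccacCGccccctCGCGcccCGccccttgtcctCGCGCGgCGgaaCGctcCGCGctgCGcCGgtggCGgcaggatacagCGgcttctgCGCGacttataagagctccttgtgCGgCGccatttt
GSK3B start: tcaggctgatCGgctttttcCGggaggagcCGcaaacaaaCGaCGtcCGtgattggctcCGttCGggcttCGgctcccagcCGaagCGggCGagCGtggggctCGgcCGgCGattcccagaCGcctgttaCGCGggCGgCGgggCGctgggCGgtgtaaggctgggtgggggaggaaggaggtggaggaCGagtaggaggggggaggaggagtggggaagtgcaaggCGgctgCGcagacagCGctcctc
APC upstream start: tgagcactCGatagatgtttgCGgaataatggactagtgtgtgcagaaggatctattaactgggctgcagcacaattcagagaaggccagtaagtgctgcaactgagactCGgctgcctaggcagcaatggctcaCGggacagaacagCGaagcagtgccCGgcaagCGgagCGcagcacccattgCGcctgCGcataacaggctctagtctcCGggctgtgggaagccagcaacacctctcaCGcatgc
WNT9A start: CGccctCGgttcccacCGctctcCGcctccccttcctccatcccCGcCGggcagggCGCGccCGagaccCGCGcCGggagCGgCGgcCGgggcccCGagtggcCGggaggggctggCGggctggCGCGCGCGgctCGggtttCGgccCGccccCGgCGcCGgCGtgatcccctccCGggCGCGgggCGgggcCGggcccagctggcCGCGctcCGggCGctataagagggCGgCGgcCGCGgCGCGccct
WNT2B downstream start: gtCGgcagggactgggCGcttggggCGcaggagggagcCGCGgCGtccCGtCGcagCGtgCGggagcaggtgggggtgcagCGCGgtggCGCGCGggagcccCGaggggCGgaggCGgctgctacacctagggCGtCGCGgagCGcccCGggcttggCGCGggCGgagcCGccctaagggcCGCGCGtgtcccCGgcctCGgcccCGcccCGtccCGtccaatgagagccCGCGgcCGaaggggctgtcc
WNT2B upstream start: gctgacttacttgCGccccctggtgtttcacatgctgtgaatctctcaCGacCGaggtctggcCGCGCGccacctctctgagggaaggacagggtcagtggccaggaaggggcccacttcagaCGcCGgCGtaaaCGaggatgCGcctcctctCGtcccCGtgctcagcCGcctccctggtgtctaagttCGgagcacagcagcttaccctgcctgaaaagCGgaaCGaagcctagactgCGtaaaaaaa
WNT3A start: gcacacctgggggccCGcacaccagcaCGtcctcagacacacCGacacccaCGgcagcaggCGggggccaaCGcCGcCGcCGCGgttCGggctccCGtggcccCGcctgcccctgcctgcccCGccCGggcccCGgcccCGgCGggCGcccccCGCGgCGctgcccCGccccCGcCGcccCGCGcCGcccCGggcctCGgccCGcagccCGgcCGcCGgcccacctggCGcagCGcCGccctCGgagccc

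All 4 MYT1L libraries had peaks at more of the 55 genes than either IgG library. A peak lay in the window of 42, 25, 35 and 52 of them in MYT1L replicates 1 to 4 (38.5 ± 11.4, SD, n = 4), and of 0 and 1 in IgG replicates 1 and 2. Summed over the 55 windows, there were 62, 28, 42 and 95 peaks in the MYT1L libraries and 0 and 1 in the IgG libraries. A peak in the windows of both WNT6 and WNT10A counts for each of them in these sums. Of all protein-coding genes, 68.0%, 43.0%, 57.3% and 77.6% had a peak in MYT1L replicates 1 to 4, and 1.61% and 2.90% in the IgG libraries. The Wnt genes lay above that share in each MYT1L library, by most in replicate 4 (94.5%). The highest peaks of each list reached few genes, Wnt or other. Of the 976 peaks with the highest −log10 q in each list, those of MYT1L replicate 2 reached GSK3B, and those of replicate 4 reached GSK3B, APC and FZD3. Those of MYT1L replicates 1 and 3 reached none of the 55 genes, and those of IgG replicate 2 reached DKK4. The same peaks reached 0.933%, 2.12%, 0.848% and 3.75% of all protein-coding genes in MYT1L replicates 1 to 4. In IgG replicates 1 and 2 they reached 1.61% and 2.82%. At that list length the mean difference between MYT1L and IgG libraries fell from 38 to 0.5 genes. Over all protein-coding genes these peaks reached 187, 424, 170 and 751 genes in MYT1L replicates 1 to 4. In the IgG libraries they reached 323 and 565, so the groups overlapped there as well.

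**Figure D1:**
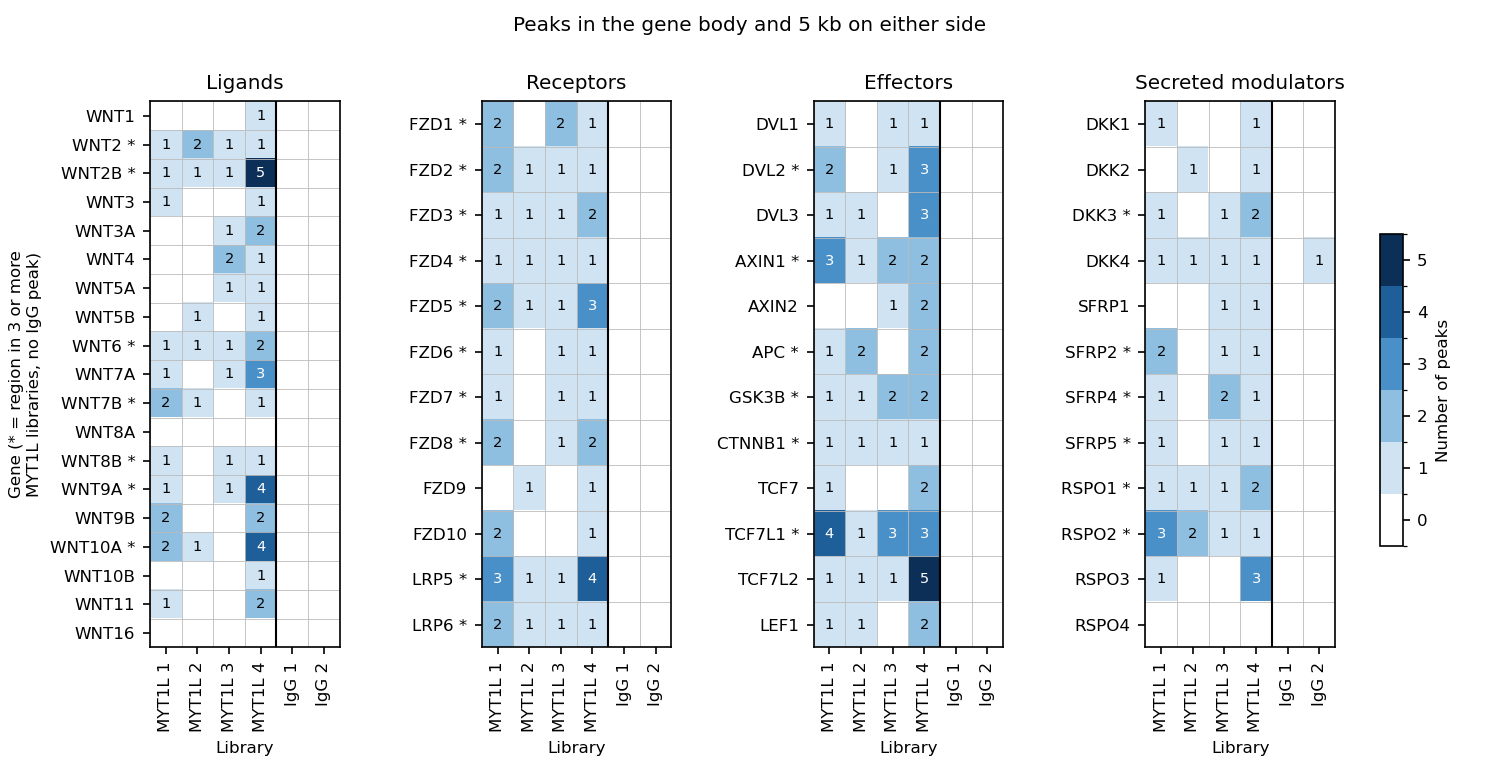
Number of peaks (colour and figure in each cell) in the body and 5 kb on either side of each of the 55 Wnt genes, by class, in the 4 MYT1L and 2 IgG libraries. An asterisk marks genes with a region in at least 3 MYT1L libraries and no IgG peak; the IgG columns are empty except for 1 peak at DKK4.

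By the calling rule, 29 of the 55 genes (52.7%) were called, where the rule called 48.0% of all protein-coding genes. This order turned under stricter rules and a narrower window. The shares were 23.6% against 30.6% at a −log10 q of 5 or more, 18.2% against 25.3% with a region in all 4 libraries, 21.8% against 33.7% with equal numbers of peaks in the MYT1L lists, and 43.6% against 44.7% with 1 kb on either side. The class shares were unequal: 10 of 12 receptors (83.3%), 6 of 12 effectors (50%), 6 of 12 secreted modulators (50%) and 7 of 19 ligands (36.8%). Within single libraries, a peak was present at 11, 7, 10 and 12 of the 12 receptors, at 11, 8, 8 and 12 of the 12 effectors, and at 11, 6, 9 and 17 of the 19 ligands in MYT1L replicates 1 to 4. Receptors exceeded ligands in each of these libraries, by 26.8 ± 11.5 percentage points (SD, n = 4; range 10.5 to 36.0). Effectors exceeded ligands by 24.7 ± 11.8 points (SD, n = 4; range 10.5 to 35.1). Receptors and effectors differed by 2.08 ± 10.5 points (SD, n = 4), which is within the spread between libraries. Secreted modulators had a peak at 9, 4, 8 and 11 of 12 genes. With equal numbers of peaks in the MYT1L lists the receptor and effector differences from ligands were 46.7 and 42.5 points. With 2 of the other 3 libraries required, 11 of 12 effectors and 11 of 12 receptors were called without MYT1L replicate 1. There 55.4% of all protein-coding genes were called. Without replicate 2 the counts were again 11 and 11, where 63.3% were. Receptors and effectors were also level with a region in all 4 libraries (4 each) and with equal list lengths (5 each). Receptors stayed ahead at a −log10 q of 5 or more (6 against 4) and without replicate 3 (12 against 9). Without replicate 3, 59.9% of all protein-coding genes were called. The ligand count fell to 0 at the stricter q threshold and with equal list lengths, to 1 with a region in all 4 libraries and to 4 with 1 kb on either side. No p is given for these differences, because the genes were chosen with earlier results of these data in view.

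**Figure D2:**
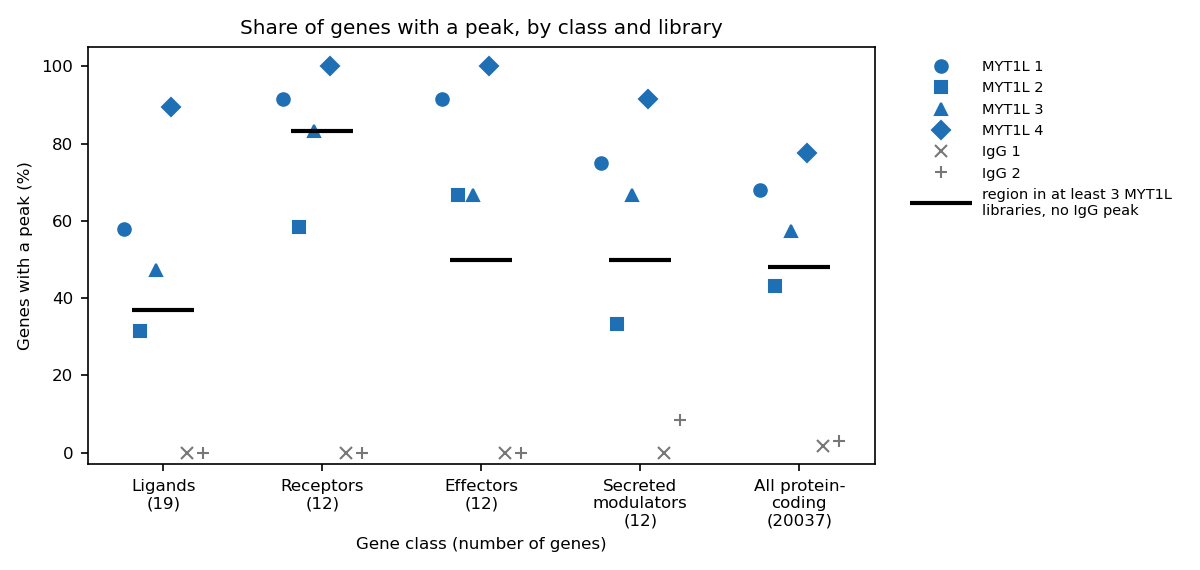
Share of genes (%) with a peak in the gene window, by class, with a symbol for each library and a line for the share called. Receptors lie above ligands in each of the 4 MYT1L libraries, and the line stands at 83.3% for receptors and 36.8% for ligands.

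A longer gene gives a larger window, and the called share of all protein-coding genes rose from 30.9% for genes under 10 kb to 48.0% (10 to 50 kb), 59.0% (50 to 100 kb) and 67.6% (over 100 kb). The receptors are the shortest class, with a median gene length of 7.10 kb against 29.3 kb for ligands, 53.1 kb for effectors and 33.7 kb for secreted modulators. Of the 8 receptors under 10 kb, 6 were called. Of the ligands, 5 of 11 between 10 and 50 kb and 2 of 6 between 50 and 100 kb were called, and 0 of 2 under 10 kb. The part of window size in the class shares was not tested.

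The classes also differed in where the regions lay. A called region lay within 1 kb of a gene end at 9 of 12 receptors (75.0%), 5 of 12 effectors (41.7%), 5 of 12 secreted modulators (41.7%) and 2 of 19 ligands (10.5%). Among all protein-coding genes this share was 38.9%: 24.2% for genes under 10 kb, 40.4% at 10 to 50 kb, 48.6% at 50 to 100 kb and 51.8% above. With 2 of the other 3 libraries required, the ligand count was 1 without MYT1L replicate 1, where the share of all genes was 44.6%, 4 without replicate 2 (51.5%) and 4 without replicate 3 (48.4%). A gene end may be the start or the 3′ end. Annotated starts with strand were available for 40 of the 55 genes. A called region lay within 1 kb of such a start at 5 of 6 receptors, 5 of 11 effectors, 3 of 7 secreted modulators and 2 of 16 ligands. The share of all protein-coding genes with a start was 42.2%. Starts were available for only 50% of the receptors and 58.3% of the secreted modulators, so nothing is read from their counts against that share. Called without a region at either end were 5 ligands, 1 receptor, 1 effector and 1 secreted modulator; this was so for 9.12% of all protein-coding genes.

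**Figure D3:**
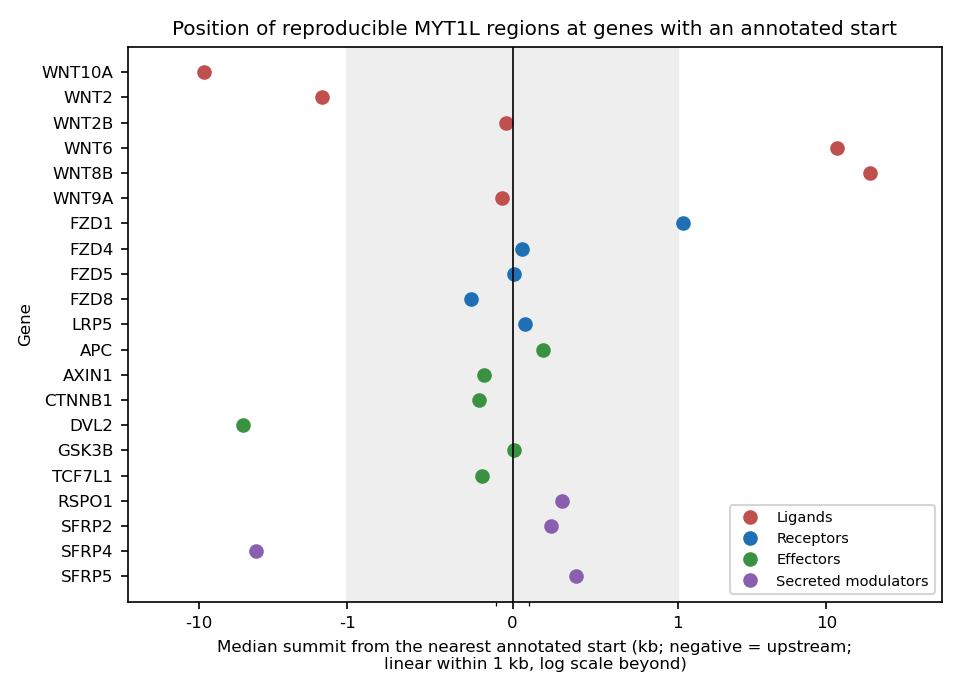
Distance (kb) from the nearest annotated start to the median summit of the called region, for the called genes with an annotated start, coloured by class; the grey band marks 1 kb on either side and negative values lie upstream. The regions of WNT10A, WNT2, WNT6, WNT8B, DVL2 and SFRP4 lie outside the band. FZD1 lies just beyond its edge, although each library of its region also has a summit near the start.

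Of the 12 receptors, 8 Frizzled genes and both co-receptors were called. Frizzled proteins are seven-pass membrane receptors that take up the Wnt ligand. The receptor region with the highest mean fold was at LRP6 (chromosome 12, 12116025 to 12267044), a co-receptor whose phosphorylated tail binds Axin. Its region (12266370 to 12267503) spans a gene end and had folds of 9.45, 8.18, 9.70 and 10.6 in MYT1L replicates 1 to 4, a mean of 9.49 ± 1.01 (SD, n = 4), from 26, 13, 24 and 47 fragments at the summits. These values lay close together, with replicate 2, the shortest list, lowest. FZD3, a receptor known for axon guidance and planar polarity (chromosome 8, 28494212 to 28574258), had a region in all 4 libraries (28493762 to 28494758) with folds of 7.16, 4.44, 6.99 and 10.6 in MYT1L replicates 1 to 4. Replicate 4 was high and replicate 2 low there, and the mean was 7.29 ± 2.52 (SD, n = 4).

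FZD4 and FZD5 were the other Frizzled genes with a region in all 4 libraries. FZD4 (chromosome 11, 86945679 to 86955395; region 86954823 to 86956100) is known for retinal vessel growth, and its median summit lay 55 bp inside the start with folds of 4.15, 5.81, 5.25 and 7.38 in MYT1L replicates 1 to 4. FZD5 (chromosome 2, 207762598 to 207769906; region 207769379 to 207770177), a canonical Wnt receptor, had its median summit 6 bp from the start that follows the sequence shown above, with folds of 4.65, 4.40, 4.84 and 5.90 in MYT1L replicates 1 to 4. Both sets were lower in replicates 1 to 3 than in replicate 4. At FZD5 the peaks of replicates 2 and 3 did not overlap each other and were joined by those of replicates 1 and 4. At FZD8 (chromosome 10, 35638247 to 35642296; region 35640963 to 35642666) the folds were 4.27, 4.88 and 5.52 in MYT1L replicates 1, 3 and 4, and the region also reaches MIR4683 and an end of the predicted gene LOC124902528. FZD1 (chromosome 7, 91264433 to 91271326, region 91264223 to 91266073) had folds of 5.16, 5.17 and 8.59 at the highest peaks of MYT1L replicates 1, 3 and 4. The median of these summits lay 1077 bp after the start, since those of replicates 1 and 3 lay inside the gene, at 91265510 and 91265532. Both libraries also had a peak at the start, with summits at 91264518 and 91264545 and folds of 5.13 and 4.54. The summit of replicate 4 lay there too, at 91264528.

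FZD2, FZD6 and FZD7 completed the called Frizzled genes, each with a region at a gene end in the same 3 libraries. FZD2 (chromosome 17, 44557484 to 44561262; region 44557360 to 44558289) had folds of 4.52, 5.62 and 6.68 in MYT1L replicates 1, 3 and 4. FZD6, a receptor of the polarity branch (chromosome 8, 103298494 to 103332866; region 103298569 to 103299101), had 5.49, 6.34 and 6.86 in MYT1L replicates 1, 3 and 4. The folds at FZD7 (chromosome 2, 202033855 to 202038441; region 202033648 to 202034996), a receptor abundant in pluripotent cells, were 5.83, 5.30 and 5.22 in MYT1L replicates 1, 3 and 4, so close together that no library stood out (5.45 ± 0.332, SD, n = 3). MYT1L replicate 2 was the library without a peak in each of the 3 regions. At LRP5 (chromosome 11, 68298412 to 68449275), the other co-receptor, the region 68312461 to 68312932 lies far inside the gene span and 76 bp after an annotated start, that of the CpG-rich sequence printed above. Its folds were 4.41, 4.58 and 4.03 in MYT1L replicates 1, 3 and 4, and its window held the most peaks of the class (3, 1, 1 and 4 in MYT1L replicates 1 to 4). The folds gave the lowest mean among the receptors (4.34 ± 0.278, SD, n = 3). FZD9 and FZD10 had a region at a gene end in 2 libraries each, MYT1L replicates 2 and 4 at FZD9 and 1 and 4 at FZD10, and were not called.

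Among the effectors, 5 of the 8 cytoplasmic genes and 1 of the 4 TCF/LEF genes were called. They included the destruction-complex genes GSK3B, APC and AXIN1 and the gene of its substrate, CTNNB1. GSK3B (chromosome 3, 119821321 to 120094447) encodes the kinase that phosphorylates β-catenin. Its region (120093897 to 120095652) covers the start, with the median summit 11 bp from it, and overlaps the divergent transcript GSK3B-DT. The folds were 6.77, 7.84, 6.62 and 8.89 in MYT1L replicates 1 to 4, with 30, 21, 17 and 73 fragments at the summits. All 4 libraries were near each other for this gene (7.53 ± 1.06, SD, n = 4). CTNNB1 (chromosome 3, 41199505 to 41240443), the gene of β-catenin, had a region (41198763 to 41199809) with its median summit 201 bp upstream of the start, inside the sequence printed for it, and folds of 7.19, 6.14, 7.28 and 10.8 in MYT1L replicates 1 to 4. Replicate 4 stood above the other 3, which lay near each other.

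APC and AXIN1 are the scaffolds of the destruction complex. At APC (chromosome 5, 112707498 to 112846239) the region 112707326 to 112708276 lay at the more upstream of its 2 annotated starts, 182 bp after it, with folds of 6.54, 5.78 and 14.4 in MYT1L replicates 1, 2 and 4. The value of replicate 4 was the highest fold of any Wnt gene region, so that the mean had a wide error (8.90 ± 4.77, SD, n = 3). MYT1L replicate 3 had no peak at APC at all. At the other annotated start of APC a region (112737579 to 112738406) was present in MYT1L replicates 2 and 4 only, with folds of 6.33 and 11.5. AXIN1 (chromosome 16, 287440 to 352723; region 352518 to 353378) had folds of 4.62, 5.38, 5.03 and 7.92 in MYT1L replicates 1 to 4 from 19, 14, 20 and 53 fragments, 175 bp upstream of its start. AXIN2, a feedback gene that the pathway itself induces, had a region at a gene end in MYT1L replicates 3 and 4 only and was not called.

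The Dishevelled genes, which pass the signal from Frizzled to the destruction complex, had weaker support. The region called for DVL2 (7239226 to 7239789 on chromosome 17) lay 5046 bp upstream of its start and 445 bp from an end of GABARAP, a neighbouring autophagy gene, with folds of 3.15, 4.21 and 5.36 in MYT1L replicates 1, 3 and 4. At the start of DVL2 itself a region was present in MYT1L replicates 1 and 4 only, which also reaches an end of PHF23. DVL1 and DVL3 had start regions in 2 libraries each, in MYT1L replicates 3 and 4 and in 1 and 4. Of the nuclear effectors, TCF7L1 (chromosome 2, 85133392 to 85310387), known as a repressor among the TCF factors, was called at its start (85132951 to 85134528), with folds of 5.03, 3.96, 5.36 and 7.56 in MYT1L replicates 1 to 4. Its window had 4, 1, 3 and 3 peaks in MYT1L replicates 1 to 4. TCF7L2 had 1, 1, 1 and 5 peaks there, yet no position in its window was shared by 3 libraries. LEF1 had peaks in 3 libraries and TCF7 in 2, without a region in 3.

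**Figure D4:**
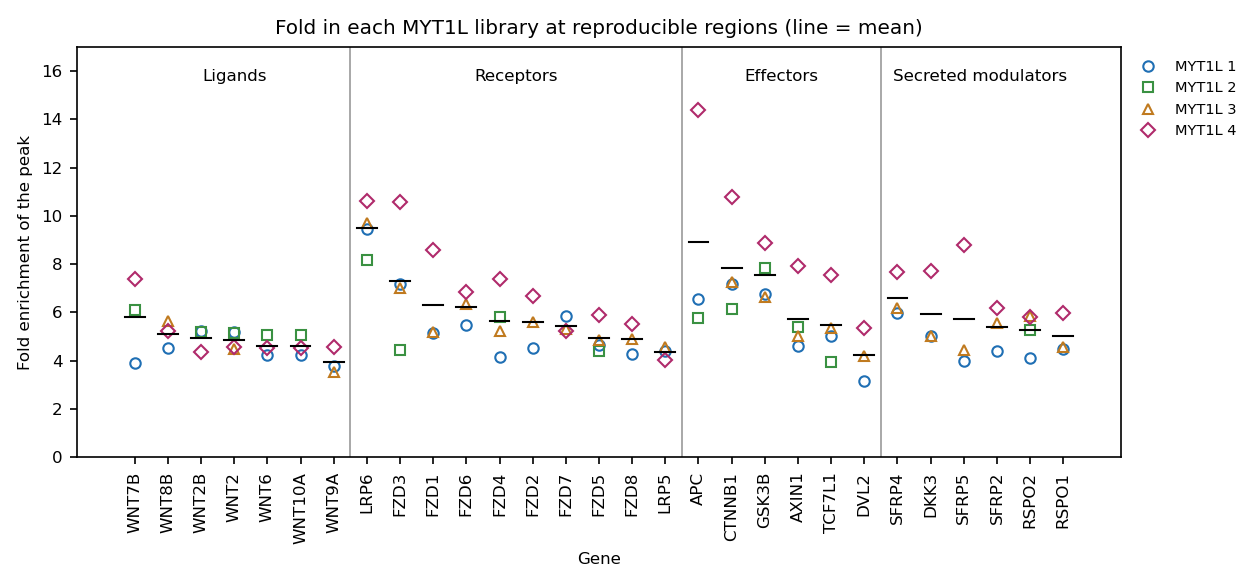
Fold enrichment of the highest peak in each MYT1L library (symbols) and their mean (line) at the called region of each of the 29 called genes, ordered by mean within each class. MYT1L replicate 4 is the highest library at 21 of the 29; ligand means run from 3.95 to 5.79 and those of effectors from 4.24 to 8.90.

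The 7 called ligands rested on regions that were mostly away from starts. Only WNT9A and WNT2B had one within 1 kb of an annotated start. At WNT9A (chromosome 1, 227918656 to 227947932; region 227947618 to 227948123) the median summit lay 65 bp upstream, within the sequence shown, and the folds of 3.76, 3.54 and 4.55 in MYT1L replicates 1, 3 and 4 gave the lowest mean of all called genes (3.95 ± 0.531, SD, n = 3). WNT2B (chromosome 1, 112466541 to 112530165) has 2 annotated starts and 1, 1, 1 and 5 peaks in MYT1L replicates 1 to 4, the most of any ligand. The region 112508480 to 112509241 lay at the downstream one, 41 bp before it, with folds of 5.23, 5.18 and 4.35 in MYT1L replicates 1, 2 and 4. At the upstream start a peak was present in MYT1L replicate 4 alone. Its 250 bases held 18 CpG, against 38 at the downstream start.

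WNT2 (chromosome 7, 117275451 to 117323058) was the ligand with a region in all 4 libraries (117324167 to 117324744), 1485 bp upstream of its start, with folds of 5.19, 5.12, 4.49 and 4.57 in MYT1L replicates 1 to 4 and 13, 7, 12 and 11 fragments at the summits. These folds differed little between libraries (4.84 ± 0.365, SD, n = 4). WNT6 and WNT10A are neighbours on chromosome 2 and share 1 region (218871453 to 218871981), which lies inside WNT6 and 2434 bp from the nearer end of WNT10A, with folds of 4.23, 5.05 and 4.52 in MYT1L replicates 1, 2 and 4. The 29 called genes therefore rest on 28 regions. WNT7B (chromosome 22, 45920366 to 45977162), expressed in the developing cortex, had a region 1765 bp beyond a gene end (45978744 to 45979197) with folds of 3.89, 6.10 and 7.37 in MYT1L replicates 1, 2 and 4. At WNT8B (chromosome 10, 100463009 to 100483744), a gene of the dorsal forebrain midline, the region 100482285 to 100482800 lay 19617 bp after the start, near the 3′ end, with folds of 4.52, 5.63 and 5.21 in MYT1L replicates 1, 3 and 4.

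The other 12 ligands were not called. WNT7A, another cortical Wnt, had peaks in 3 libraries, of which those of MYT1L replicates 1 and 4 shared a region 1264 bp from its start. Peaks were present in 2 libraries at WNT3, WNT3A, WNT4, WNT5A, WNT5B, WNT9B and WNT11, in 1 library, replicate 4, at WNT1 and WNT10B, and in none at WNT8A and WNT16. WNT3A, the textbook canonical ligand, is the gene of the last sequence above: its start holds 38 CpG in 250 bases and its peaks, each in 1 library, all lay over 15 kb after that start. Ligand windows held 13, 6, 10 and 31 distinct peaks in replicates 1 to 4. Their median fold lay below that of all peaks in protein-coding windows in each library, at 3.89 against 4.99, 5.15 against 5.59, 4.48 against 5.27 and 4.06 against 5.92. The medians of receptors, effectors and secreted modulators also lay below that of all windows in each library. The ligand median was the lowest of the 4 classes in replicates 1, 3 and 4, and the receptor median (5.13) was in replicate 2.

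Of the secreted modulators, 4 of 8 inhibitors and 2 of 4 R-spondins were called. SFRP2 and SFRP5 are decoys that bind Wnt proteins, and both had regions at their starts. SFRP5 (chromosome 10, 97766751 to 97771999; region 97771287 to 97772150) had folds of 3.98, 4.42 and 8.77 in MYT1L replicates 1, 3 and 4, so replicate 4 stood far above the others (5.73 ± 2.65, SD, n = 3). SFRP2 (chromosome 4, 153780591 to 153789083; region 153788407 to 153789167) had 4.41, 5.56 and 6.20 in MYT1L replicates 1, 3 and 4. DKK3 (chromosome 11, 11963036 to 12009745), a divergent Dickkopf protein, had a region at a gene end (12008840 to 12009727) with folds of 5.01, 5.02 and 7.72 in MYT1L replicates 1, 3 and 4. The region called for SFRP4 (37920673 to 37921536 on chromosome 7), another Wnt-binding decoy, had folds of 5.99, 6.17 and 7.66 in MYT1L replicates 1, 3 and 4 and lay 4108 bp upstream of its start and 285 bp from an end of EPDR1.

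RSPO2 and RSPO1 encode R-spondins, which act through LGR receptors to keep Frizzled and LRP6 on the cell surface. RSPO2 (chromosome 8, 107899316 to 108083620, region 108082340 to 108083590) had a region in all 4 libraries with folds of 4.12, 5.25, 5.85 and 5.79 in MYT1L replicates 1 to 4. The peak of replicate 2 there (108082340 to 108082576) overlapped only that of replicate 4 (108082393 to 108083436), which joined it to those of replicates 1 and 3. The window of RSPO2 held 3, 2, 1 and 1 peaks in MYT1L replicates 1 to 4, the most of its class. At RSPO1 (chromosome 1, 37611350 to 37634892; region 37634158 to 37635131) the folds were 4.46, 4.57 and 5.98 in MYT1L replicates 1, 3 and 4, and the median summit lay 299 bp after the start. DKK4 was the single Wnt gene with an IgG peak, where 4.16% of all protein-coding genes had one. Its region (42391567 to 42392390 on chromosome 8) had folds of 7.42, 5.06, 7.60 and 8.41 in MYT1L replicates 1 to 4 and 6.06 in IgG replicate 2, and lay 101 bp from an end of VDAC3; it was not called. DKK1, SFRP1, RSPO3 and DKK2 had peaks in 2 libraries each, and RSPO4 in none. With WNT8A and WNT16 that made 3 of the 55 genes without a MYT1L peak, where 15.9% of all protein-coding genes had none.

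Support across libraries can also be read from the regions. The 55 windows held 126 MYT1L regions, of which 72 (57.1%) came from 1 library, 25 from 2, 18 from 3 and 11 from all 4, the region at DKK4 included. Over all protein-coding windows 52.3% of 31108 regions came from 1 library. The share in at least 3 libraries was 10 of 24 regions at receptors (41.7%), 6 of 38 at effectors (15.8%), 6 of 42 at ligands (14.3%) and 7 of 22 at secreted modulators (31.8%), against 30.5% in all protein-coding windows. Replicate 4 gave 40 of the 72 regions seen in 1 library, and replicates 1, 2 and 3 gave 16, 6 and 10. Of the 18 called regions in 3 libraries, 14 lacked a peak in replicate 2 and 4 lacked one in replicate 3. A peak in every MYT1L library, wherever in the window, was seen at 17 of the 55 genes, and at 32.8% of all protein-coding genes. In 16 of the 17, all but DKK4, each MYT1L library also had more peaks than either IgG library, which was so for 30.6% of all protein-coding genes.

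Peak strength at the called genes was at or below that of called regions elsewhere. In replicate 4 the median fold of Wnt gene peaks in called regions was 6.68, against 7.98 over all protein-coding windows. The same medians were 4.63 against 5.52 in replicate 1, 5.32 against 5.78 in replicate 2 and 5.25 against 5.58 in replicate 3. The summits of called Wnt regions rested on 6 to 73 fragments. When only peaks with a −log10 q of at least 5 were used, 6 receptors, 4 effectors, 3 secreted modulators and 0 ligands were called, and the share of all protein-coding genes was 30.6%. Of these 13 genes, 12 were called before, and the other was DKK4, whose IgG peak (−log10 q of 4.56) falls below that threshold. With a region in all 4 libraries, 4 receptors, 4 effectors, 1 secreted modulator and 1 ligand were left, against 25.3% of all genes. The secreted modulator (RSPO2) and the receptor FZD5 counted there through joined peaks that do not all overlap each other.

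Promoter sequence was compared for ligands and effectors. Windows of 300 bases, 250 before to 50 after the start, were available for 16 of 19 ligands (84.2%) and 11 of 12 effectors (91.7%). For receptors (50%) and secreted modulators (58.3%) the check is void, since under 80% of the genes had a window. Windows were available for 79.1% of all protein-coding genes, also under that limit, so the values of all genes describe only the genes with a window. Ligand windows had a median of 35.5 CpG and 76.8% GC and effector windows 31 CpG and 69.7% GC. The medians of all genes with a window were 24 CpG and 64.7% GC. A called region at the start was more common in all genes the more CpG the window held: 1.42% under 5 CpG, 11.8% at 5 to 14, 45.9% at 15 to 24 and 61.9% at 25 or more. Of the ligands with 25 CpG or more, 2 of 11 had one, and of such effectors 4 of 9. The difference between these counts, and the part of CpG content in it, were not tested. A gene with several starts was placed in 1 CpG class, which need not be that of the start with the region. APC was placed at 15 to 24 by a window of 23 CpG, while its start with the region had 14.

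**Figure D5:**
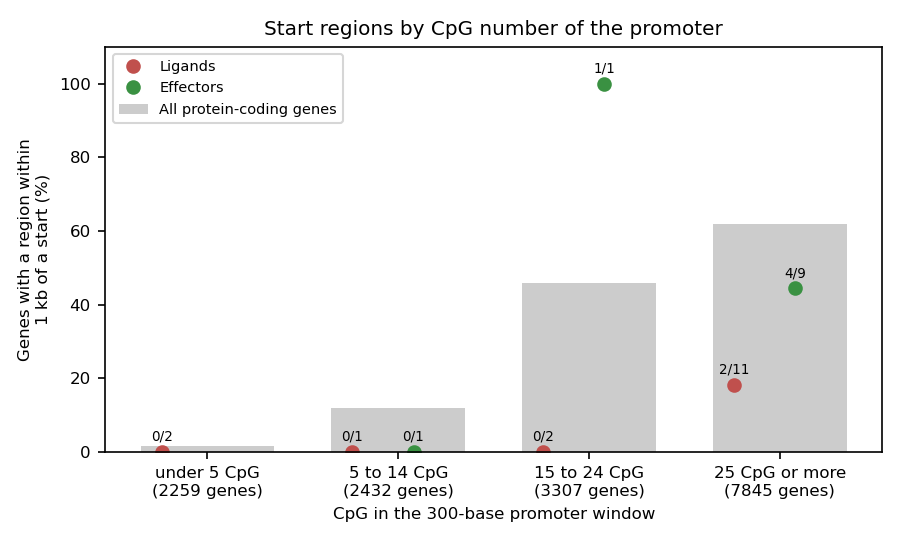
Share (%) of all protein-coding genes with a called region within 1 kb of a start, by the number of CpG in the 300-base promoter window (bars), with the Wnt ligands and effectors as points labelled with their counts. Bars rise from 1.42% to 61.9% and cover only genes with a window. A gene with several starts is placed in 1 class, which need not be that of the start with the region. In the class of 25 CpG or more, 2 of 11 ligands and 4 of 9 effectors have a region.

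The windows were searched on both strands for AAGTT, the core bound by zinc fingers of the MYT1 family, and for CTTTGAT, a TCF/LEF site. The letters AAGTT or AACTT were present in at least 1 window of 10 of the 40 genes with a window (25%), and of 35.7% of the 15843 protein-coding genes with one. By window, the share was 30% of 22199 protein-coding promoter windows. With windows for 72.7% of the 55 genes, under the 80% limit, nothing is read from the difference. Among the 15 genes with a called region at a start they were found at 2, FZD8 and WNT2B, and at WNT2B they lay 65 bases before the upstream start, not at the start with the region. None of the 250-base stretches of FZD5, LRP5, CTNNB1, GSK3B, APC, WNT9A and WNT3A printed above holds them. CTTTGAT or ATCAAAG was in no window of the 40 genes, in windows of 2.61% of the 15843 genes and in 1.98% of all windows. Summits outside the windows were not searched.

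A further 51 genes of the pathway made up a wider list that was also counted. Of these, 31 (60.8%) were called, 28 with a region within 1 kb of a gene end (54.9%), where the rules called 48.0% and 38.9% of all protein-coding genes. Their median length was 58.5 kb. Called were genes of Wnt secretion (PORCN and WLS), of R-spondin reception (LGR4, LGR5, LGR6 and ZNRF3), alternative receptors (RYK, ROR2 and PTK7), kinases and ubiquitin ligase parts that turn over β-catenin (CSNK1A1, CSNK1D, GSK3A, BTRC and FBXW11), tankyrases that turn over Axin (TNKS and TNKS2), and nuclear partners (BCL9, PYGO1, PYGO2, TLE1, TLE3, TLE4 and CTNNBIP1). The others were the polarity genes VANGL1, CELSR1 and PRICKLE1, the inhibitors KREMEN1, APCDD1 and NKD2, and the target genes SP5 and CCND1.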

How the data were processed

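The deposited files were 6 lists of narrow peaks, 1 for each library (4 MYT1L and 2 IgG), made with MACS2 on hg38, per the submitters' processing notes. The aligner, filters and control settings are not given in the sources used here. Each deposited list gives a score, a fold enrichment at the summit as a ratio, and a −log10 p and −log10 q for each peak. All 3 kinds of value are the authors' own, and each list was called separately. The q-value floor was near 2.00 on the −log10 scale in each list.

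Genes and starts came from RefSeq (GRCh38.p14). MYT1L peaks of different libraries that shared at least 1 bp were joined into regions, so the peaks of a region need not all overlap each other. A gene was called by a region from at least 3 MYT1L libraries with no IgG peak, in its body or 5 kb to either side. Promoters were matched by gene identifier for 40 of 55 genes. No entry was found for SFRP1, LRP6, FZD3, WNT10B, FZD10, DKK4, AXIN2, WNT7B, FZD6, DKK3, DKK2, RSPO2, FZD2, WNT11 and FZD7. Fragments at a summit were recovered from fold and p by the MACS2 formulas, which cover counting error only.

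The members and gene lists were chosen with earlier results of these data known. Every gene of the 4 classes is named. Values per library are given for genes with a region from 3 libraries or an IgG peak, and for the gene with the most peaks in its class; genes of the wider list are named where called. Sample titles gave the groups and replicate numbers. Python 3.11.15, pandas 2.3.3, SciPy 1.17.1 and bedtools 2.31.1 were used. The calling was tested on simulated lists, where 60 of 60 planted genes were called, and regions were checked against bedtools. Alternatives varied the q threshold, libraries required, window, joining, IgG rule and list length, and left out each library. The peak names in the MYT1L lists carry numbers that are 1 higher than the sample titles, and the titles were followed.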

Additional observations from a re-analysis of the deposited data

How the results depend on the processing

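The share of the 55 genes called, 52.7% against 48.0% of all protein-coding genes, fell below that of all genes in 4 settings. These were a −log10 q threshold of 5 (23.6% against 30.6%), all 4 libraries (18.2% against 25.3%), equal MYT1L list lengths (21.8% against 33.7%) and the body with 1 kb (43.6% against 44.7%). Differences between MYT1L and IgG libraries, and of receptors and effectors from ligands, kept their sign in every alternative run. The other class differences were not rerun. Receptor and effector counts were equal with all 4 libraries (4 each), equal MYT1L list lengths (5 each) and without MYT1L replicate 1 or 2 (11 each). Of the recomputed values of the main results, 130 stayed within the limits set for them and 36 did not. The limits were 1.5 times for a count and 1 SD for a difference. The calls moved with how strict the rule was. At a −log10 q threshold of 5, the rule called 13 of the 55 genes: 6 receptors, 3 secreted modulators and 0 ligands (0 at a gene end), and 18 genes of the wider list. DKK4 was 1 of the 13 and of the 3, gained with the loss of its IgG peak. MYT1L exceeded IgG libraries by 22.2 genes there, and receptors exceeded ligands by 44.1 points. With a region in all 4 libraries, 10 genes were called (4 receptors, all at a gene end, 1 secreted modulator, 1 ligand and 0 ligands at a gene end), and 15 of the wider list. With 2 libraries, 11 effectors were called, where 65.3% of all protein-coding genes were by their gene windows. At a gene end, 4 ligands were called by that rule. With equal numbers of peaks in the MYT1L lists, as many as in the shortest, 12 genes were called (5 receptors, 5 at a gene end, 2 secreted modulators, 0 ligands, 0 at a gene end, where 27.7% of all genes had a region), and 20 of the wider list, while receptors exceeded ligands by 46.7 points and effectors exceeded ligands by 42.5. With 976 peaks in each of the 6 lists, the difference between MYT1L and IgG was 0.5 genes and 0.5 peaks, against 38 and 56.2. At that length the MYT1L and IgG libraries also overlapped in the number of all protein-coding genes reached. With the body and 1 kb, or the body alone, 4 ligands were called, where 44.7% and 43.2% of all protein-coding genes were. With joining at a shared 50% of the shorter peak 1 ligand was called at a gene end. That rule called 47.2% of all protein-coding genes by their gene windows. For the gene-end counts at the q threshold, with all 4 libraries, with 2 libraries and with joining, no gene-end share of all genes is given. Nothing is read from those counts.

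Leaving out a library in turn, with 2 of the other 3 MYT1L libraries then required, gave 29 to 40 genes, 6 to 11 effectors (11 without MYT1L replicate 1 or 2) and 1 to 4 ligands at a gene end (1 without MYT1L replicate 1, 4 without replicate 2 or 3). The share of all protein-coding genes called moved too, between 49.3% without MYT1L replicate 4 and 63.3% without replicate 2. The cause of these shifts was not tested, beyond the fewer peaks or looser rules that the alternatives use. The replicate block, over the shared numbers 1 and 2, gave a difference of 33 genes and 44.5 peaks. The deviations of same-numbered libraries correlated at 0.0104 and -0.0104 over 20037 genes. With only 2 IgG libraries, a MYT1L library correlates with them equally and with opposite sign, so these values cannot decide on pairing. No label ties the numbers to a shared culture or day, and no pairing was used. The gene-end counts and the receptor difference were added as results after the data were seen. Regions at summits with few fragments are the least certain, and total depth is unknown.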
